A study of Mus musculus with 4 samples.

Results

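The genes described here are the nuclear effectors of canonical WNT signaling: the 4 TCF/LEF genes Lef1, Tcf7, Tcf7l1 and Tcf7l2, the zinc finger genes Sp5 and Sp8, and the cofactor genes Bcl9, Bcl9l, Pygo1 and Pygo2. They were chosen by name, as all probes on the array that carry one of these 10 gene names, a rule that uses no measured value, although the list itself was drawn up with earlier results of these arrays known. The array holds 29924 gene names, of which 22455 were tested, and all 10 effectors were among them. The samples were ureters of wild-type NMRI mouse embryos taken at E12.5 and kept as explants for 18 h, either with 10 µM IWP-2 or with the solvent DMSO alone (2 parts in 1000). IWP-2 blocks Porcupine, the enzyme that attaches the lipid WNT ligands need for secretion, so that the compound acts on every tissue of the explant and not on the mesenchyme alone. Each of the 4 two-color arrays compared 1 treated with 1 control pool of ureters. The treated RNA was labeled in red on arrays 1 and 3 and in green on arrays 2 and 4.

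In canonical WNT signaling, ligand binding stabilizes beta-catenin, which enters the nucleus but cannot bind DNA itself. It is brought to its target genes by the TCF/LEF proteins, which bind DNA through an HMG box and recruit corepressors of the TLE family when beta-catenin is absent. LEF1 and TCF7 are mostly described as activators and TCF7L1 mostly as a repressor, while TCF7L2 can act both ways. BCL9 and BCL9L bind beta-catenin and link it to PYGO1 and PYGO2, whose PHD finger reads methylated histone H3. SP5 and SP8 are zinc finger proteins of the SP family that bind GC-rich DNA, and Sp5 is a common target gene of the pathway. In the early ureter, WNT ligands of the epithelium act on the surrounding mesenchyme, the precursor of smooth muscle.

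To relate the changes to sequence, the promoters of the effectors were searched for the TCF/LEF motif CTTTGAT, its variant CTTTGTT and the GC box GGGCGG, each on both strands. The RefSeq promoter table (GRCm38.p6) covers 250 bases before to 50 bases after a transcription start. It holds 18 windows for 9 of the 10 genes and none for Bcl9l. Of all 32851 windows of the table, 3.73% hold CTTTGAT, 5.85% hold CTTTGTT and 35.7% hold GGGCGG. Among the effectors, CTTTGAT was found in 1 window, that of Sp5. CTTTGTT was found in 2 windows, that of Sp5 and the second of Tcf7l2. The Sp5 window had CTTTGAT on the strand of the gene, beginning 104 bases before the start, and CTTTGTT on the opposite strand 222 bases before it, but no GC box. The GC box was found in 13 of the 18 windows, among them 3 of the 4 of Lef1 and both of Tcf7. Windows of a gene can overlap, so these are not separate counts. The first 2 windows of Lef1 hold the same GC box, and windows 2 and 3 of Pygo2 the same 3. A match describes letters and shows no binding. The stretches before the start of Sp5 (chr2:70474673-70474922, plus strand) and before the first start of Lef1 (chr3:131110047-131110296, plus strand) are shown because both genes fell with IWP-2 while they differ in these letters. Capitals mark the motifs; CTTTGTT appears as its reverse complement, since it lies on the opposite strand.
Sp5: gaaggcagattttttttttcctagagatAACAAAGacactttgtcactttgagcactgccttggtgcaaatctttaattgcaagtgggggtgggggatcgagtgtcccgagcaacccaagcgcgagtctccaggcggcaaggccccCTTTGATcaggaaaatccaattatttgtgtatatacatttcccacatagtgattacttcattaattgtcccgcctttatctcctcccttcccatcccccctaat
Lef1: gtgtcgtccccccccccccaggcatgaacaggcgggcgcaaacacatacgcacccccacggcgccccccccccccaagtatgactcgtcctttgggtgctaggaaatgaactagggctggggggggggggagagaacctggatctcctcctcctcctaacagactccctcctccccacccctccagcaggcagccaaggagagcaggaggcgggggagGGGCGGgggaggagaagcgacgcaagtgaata

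Of the 10 effectors, 3 fell with IWP-2, namely Sp5, Lef1 and Tcf7, and 0 rose. Among all genes tested, 15.0% were called lower and 18.1% higher (limma with Benjamini-Hochberg adjustment over 22455 genes, threshold 0.05). With 10 genes the count alone says little, and the size of the 3 changes is the plainer measure. Ordered from the largest fall, Sp5 ranked 6, Lef1 62 and Tcf7 84 of the 22455 genes. The changes of the other 7 effectors lay between -0.12 and 0.17 on the log2 scale and did not pass the test. The control and treated intensities did not overlap for Sp5, Lef1 and Tcf7, and they overlapped for each of the other 7. How many of all genes tested lacked such an overlap was not counted, so this describes the values of these 10 genes alone.

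**Figure D1:**
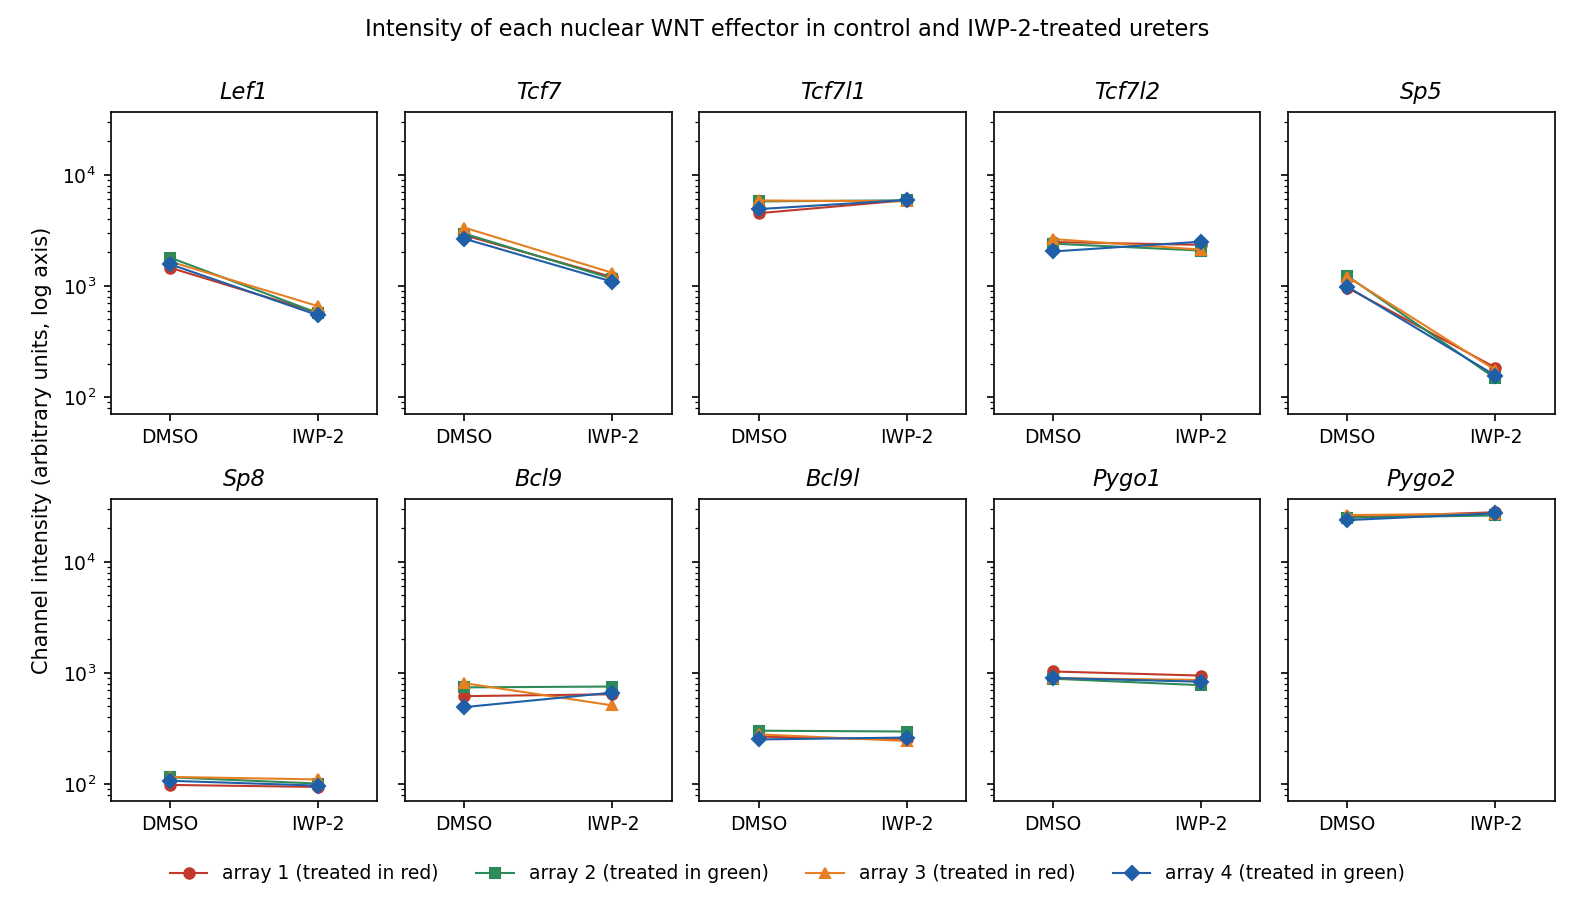
Intensity of each effector in the DMSO and the IWP-2 channel of the 4 arrays (arbitrary units on a log axis, brightest probe of the gene, lines join the channels of an array). All 4 lines fall for Sp5, Lef1 and Tcf7, whose intensities with IWP-2 lie below all control values. The height of a line cannot be compared between genes, because each has its own probe.

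Intensities are background-corrected channel values to which an offset of 50 was added, and changes are log2 ratios of IWP-2 over control per array. Each change below is the average over 4 arrays ± the SD among them. The median spot intensity of an array was 368 to 711 in the control and 385 to 694 in the treated channel, over a local background of 28 to 77. The ratios of the arrays correlated across all genes with r between 0.625 and 0.831, highest between arrays of the same dye order, and 0 genes passed the threshold for the dye term. All arrays were on the same slide. The explants were bulk tissue, in which fewer cells of a type and less RNA per cell cannot be told apart.

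Sp5 showed the largest change. Its probe (chromosome 2, 70315688 to 70315747, mm9) gave 963, 1230, 1210 and 985 in the control channels of arrays 1 to 4, and 184, 147, 175 and 156 in the treated channels. Every treated value was thus far below every control value, and still above background on 4 of 4 arrays. The log2 ratios were -2.39, -3.07, -2.78 and -2.66, with a mean of -2.72 ± 0.28 (SD, n = 4, limma adjusted p = 1.71e-05). This is a 6.6-fold fall, to 15.1% of the control. The size depended on the background treatment, since the offset draws the ratios of dim signals towards 0: with the processed signals of the scanner software the fall was 11-fold, to 9.09% of the control. The paralogue Sp8, another SP factor, was measured close to background. Its brighter probe (chromosome 12, 120088145 to 120088204) gave 98.2, 115, 116 and 107 in control and 94.2, 101, 110 and 96.8 in treated channels. It was lower on 4 of 4 arrays by a small margin, at -0.12 ± 0.06, and just missed the threshold (adjusted p = 0.0543). It passed under 5 of the 16 alternatives in which it was measured, with a change of -0.35 and an adjusted p = 0.021 in the processed signals. The second probe of Sp8 was above background in control on 1 array and with IWP-2 on 2 arrays, and was not tested.

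Lef1 is represented by 2 probes. The brighter (chromosome 3, 130926200 to 130926259) gave 1460, 1800, 1660 and 1570 in control and 573, 569, 657 and 544 with IWP-2. The treated level was about the same on all 4 arrays and below any control level. The log2 ratios of -1.35, -1.67, -1.34 and -1.53 averaged to -1.47 ± 0.16 (SD, n = 4, limma adjusted p = 1.22e-05), a 2.77-fold fall to 36.1% of the control. The falls were larger on arrays 2 and 4, where the treated RNA was green, than on arrays 1 and 3, and the fit takes up such a difference as a dye term. The second probe has its ends 18162 bases apart (130907851 to 130926012), while the probes are 60 bases long, so that it joins sequences from both sides of an intron. It changed by -1.52 ± 0.16, from 626 to 830 in control to 242 to 273 with IWP-2. The difference between both probes was 0.05 ± 0.10. In the processed signals, which carry no offset, they changed by -1.57 ± 0.17 and -1.83 ± 0.16, while the offset draws ratios of dim probes towards 0.

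Tcf7, the gene of TCF1, gave 2860, 2960, 3350 and 2660 in control and 1200, 1160, 1310 and 1090 with IWP-2 at its brighter probe (chromosome 11, 52066114 to 52066173). Again all treated values lay below all control values. The log2 ratios of -1.26, -1.35, -1.35 and -1.28 had the smallest spread of the 10 effectors, with a mean of -1.31 ± 0.05 (SD, n = 4, limma adjusted p = 1.58e-05), a 2.48-fold fall to 40.3% of the control. The second probe (52066738 to 52066797) fell less, by -0.95 ± 0.13, from 746 to 996 in control to 396 to 552 with IWP-2. The first probe showed the larger fall on 4 of 4 arrays, with a difference of -0.50 to -0.23 on the log2 scale (exact sign-flip test, two-sided, p = 0.125, the smallest that 4 arrays allow). On arrays 1 and 3 the second probe changed by -0.82 and -0.85, less than 2-fold. The offset draws the ratios of this dimmer probe more towards 0. In the processed signals, which carry no offset, the first probe changed by -1.348 ± 0.0535 and the second by -1.07 ± 0.135. With the mean of both probes in place of the brighter, the change of Tcf7 was -1.13.

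The other TCF/LEF genes did not pass the test. Tcf7l1, the gene of TCF3, gave 4510, 5760, 5870 and 4910 in control and 5900, 5890, 5770 and 5930 with IWP-2 (chromosome 6, 72576377 to 72576436). The treated channels were nearly constant and the control channels varied. The mean change was 0.17 ± 0.20 (adjusted p = 0.143, 95% confidence interval -0.02 to 0.35). It was higher on 3 of 4 arrays. Without array 1 the change was 0.06 (adjusted p = 0.528) and without array 4 it was 0.11 (adjusted p = 0.398). Without array 3 it was 0.27 and passed (adjusted p = 0.0325), and it also passed with the arrays averaged as dye-swap pairs (adjusted p = 0.0342). Tcf7l2, the gene of TCF4, changed by -0.08 ± 0.27 (adjusted p = 0.517, interval -0.29 to 0.13), from 2040 to 2640 in control and 2080 to 2500 with IWP-2 at its brightest probe (chromosome 19, 56006638 to 56006697). Its other 2 probes, at -0.12 ± 0.23 and -0.09 ± 0.10, did not pass either.

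**Figure D2:**
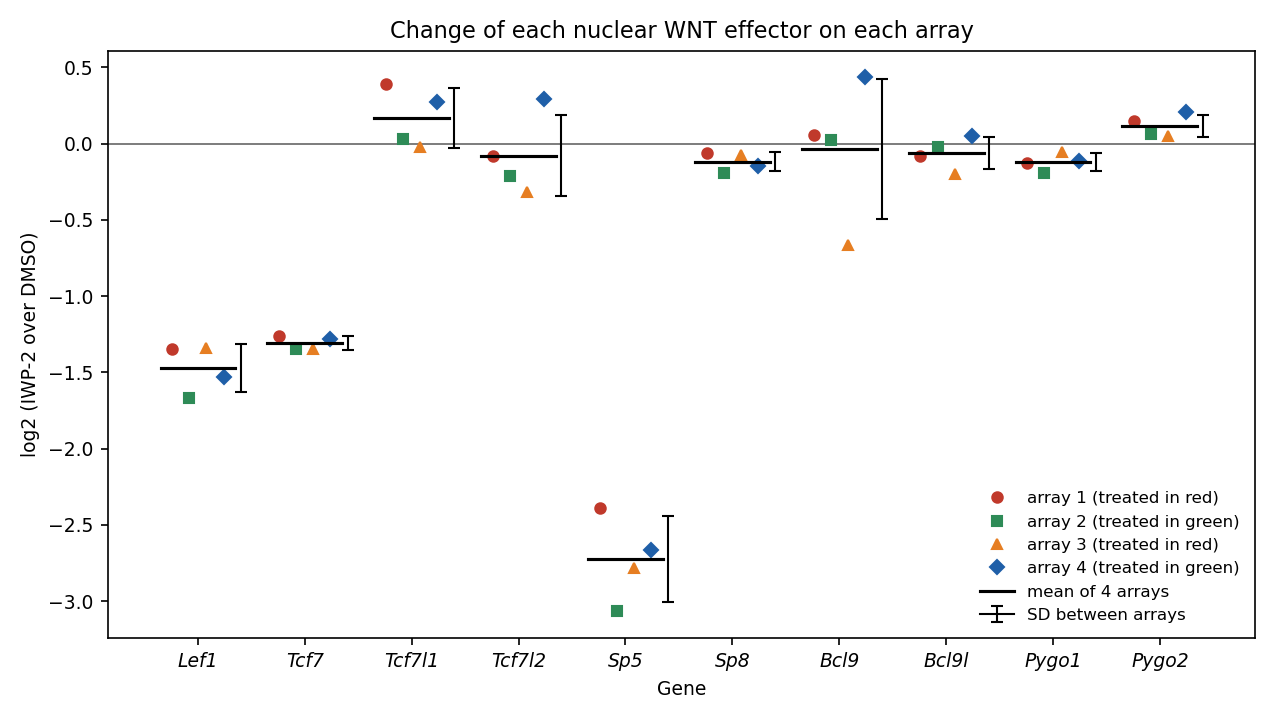
Change of each effector on each array (vertical axis, log2 of IWP-2 over DMSO, brightest probe; points are arrays, bars the mean of 4 arrays and its SD). Sp5, Lef1 and Tcf7 lie at -1.26 or lower on all 4 arrays, and the points of the other 7 genes between -0.67 and 0.43. Of these 7, Bcl9 spreads most widely. Sp8 and Pygo1 lie slightly below 0 and Pygo2 slightly above 0 on all 4 arrays.

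The cofactors of beta-catenin did not pass the test. Bcl9 (chromosome 3, 97008238 to 97008297) changed by -0.04 ± 0.46 (adjusted p = 0.837), with -0.67 on array 3 and 0.43 on array 4. This was the widest spread among the effectors. Its dimmer probe, at -0.09 ± 0.17, gave 0.00 on array 3 and -0.11 on array 4, so that both probes disagreed on these arrays. On array 2 the brighter probe gave 0.03 and the dimmer -0.32. Bcl9l (chromosome 9, 44317916 to 44317975) ranged from 252 to 302 in control and from 244 to 297 with IWP-2, a change of -0.06 ± 0.11 (adjusted p = 0.304). Pygo1 (chromosome 9, 72793716 to 72793775) was slightly lower on 4 of 4 arrays, at -0.12 ± 0.06 (adjusted p = 0.0609), from 887 to 1030 in control and 775 to 946 with IWP-2. Pygo2 (chromosome 3, 89238991 to 89239050) was slightly higher on 4 of 4 arrays, at 0.12 ± 0.07 (adjusted p = 0.092), from 23700 to 26300 in control and 26100 to 27900 with IWP-2. Neither change reached the threshold under any of the 17 alternatives, whose lowest adjusted p was 0.0528 for Pygo1 and 0.0787 for Pygo2. The 95% confidence intervals of the 4 cofactors reached no further than -0.33 and 0.26 on the log2 scale.

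The 10 effectors have 16 probes, and 15 of them were tested. Of these, 5 fell, the probes of Lef1, Tcf7 and Sp5, and 0 rose (limma with adjustment over 29933 probes, of which 15.9% were called lower). No effector thus had a probe that fell beside a tested probe that did not. The positions are those of the array files on the mm9 build, and exons or untranslated regions were not assigned.

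**Figure D3:**
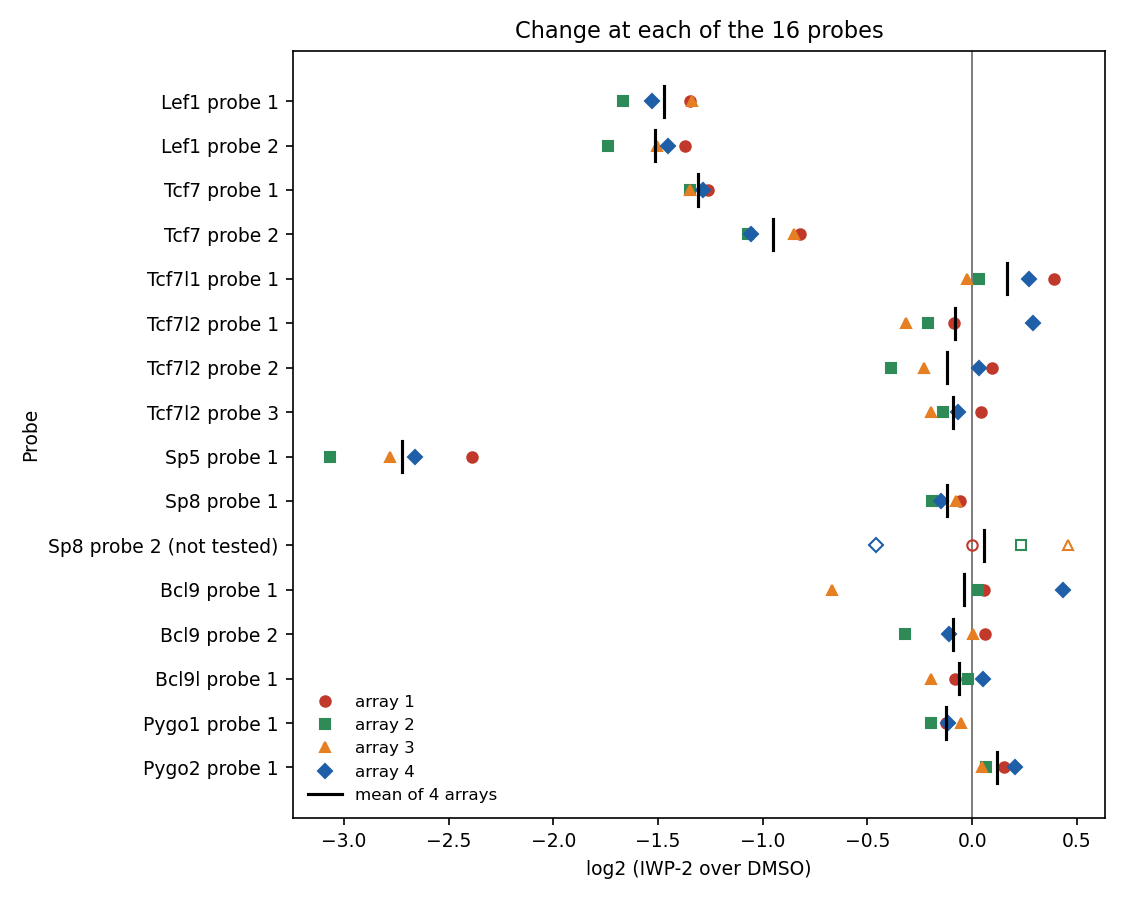
Change at each of the 16 probes (horizontal axis, log2 of IWP-2 over DMSO; points are arrays, black bars the mean of 4 arrays, open points the Sp8 probe that was not tested). Both probes of Lef1 and both of Tcf7 lie at -0.82 or lower on all 4 arrays, and the second probe of Tcf7 fell less than the first.

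To compare the paralogues, the difference of their log2 ratios was taken within each array for 9 pairs, and each was tested itself. On the log2 scale the change of Lef1 was below that of Tcf7l1 by a difference of -1.64 and below that of Tcf7l2 by -1.39. For Tcf7 the differences were -1.48 from Tcf7l1 and -1.23 from Tcf7l2. Between Sp5 and Sp8 the difference was -2.60. The signal of Sp8 lay so near the offset of 50 that a fall like that of Sp5 could not have been seen at its probe, so that this difference does not show whether Sp8 responded differently. All 5 of these pairs had differences of the same sign on 4 of 4 arrays and an adjusted p of at most 0.000232 when fitted with the spread of single genes. Pygo1 and Pygo2 differed by -0.24 (95% confidence interval -0.38 to -0.10, adjusted p = 0.0238), although neither passed the test by itself. Without array 1 this pair lost the call in the fit planned for the pairs (-0.19, adjusted p = 0.165). Bcl9 and Bcl9l differed by 0.02 (interval -0.24 to 0.29, adjusted p = 0.888); their values on array 3 lay farthest apart, at -0.47.

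For 2 pairs of TCF/LEF genes the call depended on the fit. In the fit planned for these differences, which subtracts the ratio of a paralogue from that of every gene, 7 of the 9 pairs passed. In that fit all genes share the noise of the paralogue, and the spread is taken as nearly the same for each. Its p-values can therefore be too small for some pairs and too large for others. In the fit with the spread of single genes, added after the data were seen, again 7 passed. Both fits called 6 pairs. Lef1 and Tcf7 differed by -0.16, with an adjusted p = 0.0178 in the first and 0.0698 in the second, and array 3 had the opposite sign at 0.01. Tcf7l1 and Tcf7l2 differed by 0.25, with an adjusted p = 0.484 in the first and 0.0359 in the second. Lef1 and Tcf7 can therefore not be ordered by their fall. A difference from Lef1 or Tcf7 is common. In the first fit 99.8% of all genes differed from Lef1, 99.8% from Tcf7, 100% from Sp5 and 46.8% from Pygo1. These shares rest on the p-values of that fit and may be inflated. Tcf7l1 and Tcf7l2 thus lacked a fall of this size, like nearly all genes. The intensities of different probes are not compared, since each probe binds its RNA with its own efficiency.

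**Figure D4:**
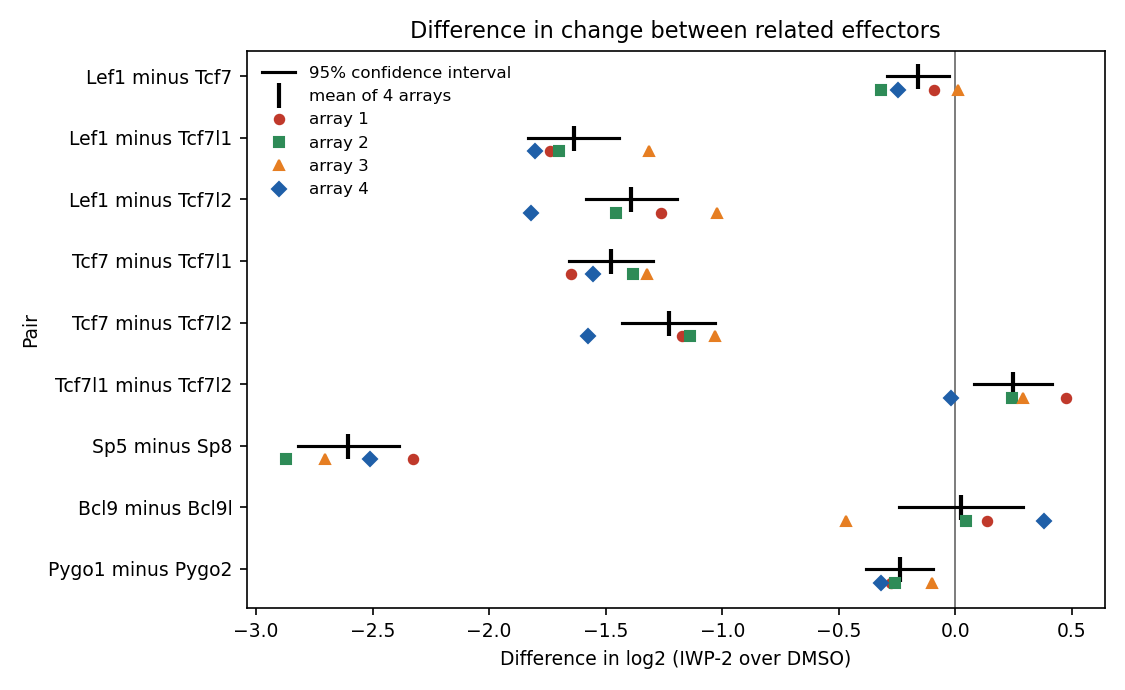
Difference in change between related effectors (horizontal axis, log2 of IWP-2 over DMSO of the first gene minus that of the second; black lines are the mean of 4 arrays with its 95% confidence interval from the fit with the spread of single genes, points are arrays). The 4 pairs of Lef1 or Tcf7 with Tcf7l1 or Tcf7l2 lie between -1.64 and -1.23 and Sp5 minus Sp8 at -2.60, while Bcl9 minus Bcl9l lies at 0.02.

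Beside the effectors, 29 genes of their partners in the nucleus were read, corepressors, coactivators and inhibitors of the complex of beta-catenin and TCF/LEF. Of these, 6 fell and 1 rose, with a median change of 0.00 (0.00 over all genes). The shares called over all genes were 15.0% lower and 18.1% higher, so that the count of falls, 20.7% of the list, lay near the background. Tle4, a corepressor of the TLE family, changed most. It gave 2419, 2457, 2548 and 2167 in control and 1556, 1471, 1552 and 1480 with IWP-2, without overlap, at -0.66 ± 0.09 (adjusted p = 0.000295). Smaller falls were those of the corepressors Tle1 at -0.31 ± 0.10 and Tle3 at -0.25 ± 0.15, of the ATPase gene Ruvbl1 at -0.28 ± 0.09, of the beta-catenin antagonist Cby1 at -0.20 ± 0.05 and of the histone deacetylase gene Hdac2 at -0.19 ± 0.06. Tle2, another TLE gene, rose by 0.20 ± 0.09 (adjusted p = 0.0127). The change of Ctnnb1, the gene of beta-catenin itself, was 0.06 ± 0.19 (adjusted p = 0.312).

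Of 7 other SP genes, 6 were tested and 1 passed, while Sp9 was not well above background. This is 16.7% of those tested, near the 15.0% of all genes called lower. Sp7, the gene of Osterix, known from bone formation, changed by -1.16 ± 0.11 (limma adjusted p = 4.67e-05). It gave 218.9, 244.4, 263.9 and 232.9 in control and 106.7, 109.8, 107.4 and 104.4 with IWP-2. Its signal was dim, and the treated channels lay below all control channels. The other SP genes tested, Sp1, Sp2, Sp3, Sp4 and Sp6, changed by -0.15 to 0.16.

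As a readout of the pathway, 16 genes that are often induced by WNT were taken. Of these, 11 fell and 0 rose, with a median of -0.47, where 15.0% of all genes were lower and 18.1% higher. The receptor gene Fzd10 changed by -2.30 ± 0.12 and the antagonist gene Apcdd1 by -1.72 ± 0.16. They were followed by the feedback inhibitors Nkd1 (-1.59 ± 0.08), Axin2 (-1.56 ± 0.09) and Dkk2 (-1.50 ± 0.12). The falls of Ccnd1, Notum, Myc, Lgr5, Tbx3 and Dkk1 were smaller. They ranged from -0.78 ± 0.26 for the cyclin gene Ccnd1 to -0.13 ± 0.09 for Dkk1. The other 5, Nkd2, Znrf3, Rnf43, Tnfrsf19 and Cd44, changed by -0.12 to 0.05 and did not pass the test. Of these, Znrf3 was dim, at 117.3 to 144 in control and 109.1 to 128.2 with IWP-2. Like that of Sp8, its signal lay so near the offset that a large fall could not have been seen. Its value therefore does not show whether Znrf3 responded. The mean change of Sp5 was larger than that of each of the 16 readouts, and those of Lef1 and Tcf7 lay between Dkk2 and Ccnd1; these differences were not tested. These genes are known from earlier results of the same arrays, and their falls are no independent evidence.

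**Figure D5:**
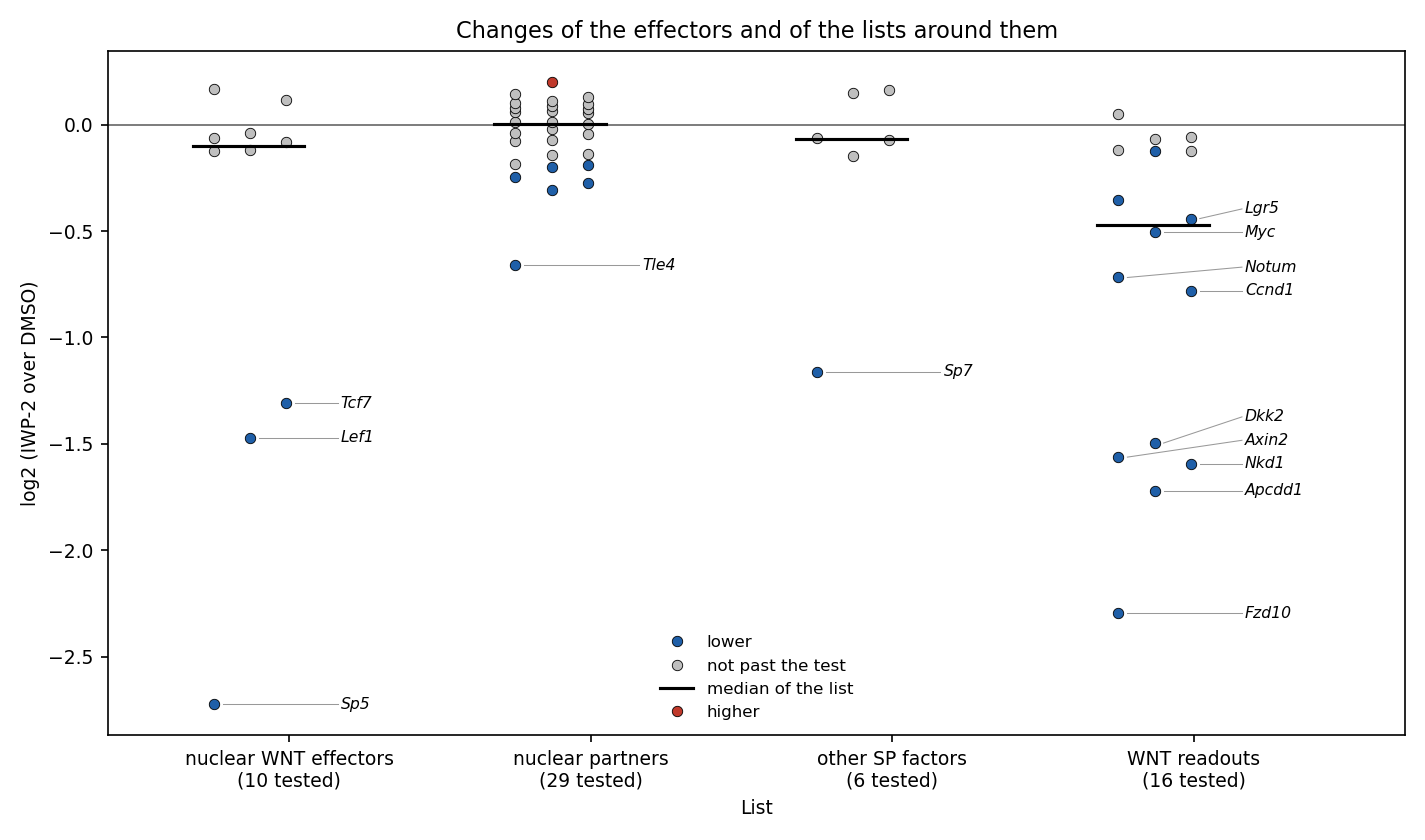
Change of the 10 effectors and of the lists around them (vertical axis, mean log2 of IWP-2 over DMSO over 4 arrays; each point is a gene, blue and red mark genes called lower and higher, black bars the median of a list). The genes with the larger called changes are named, and the falls of Lef1 and Tcf7 lie among those of the WNT readouts, whose median is -0.47, while Sp5 at -2.72 lies below all of them.

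The genes whose 4 log2 ratios lay nearest to those of an effector were taken from 17059 genes with a name, by the root mean square difference over the 4 arrays. For Lef1 they were the potassium channel gene Kcna3 (0.0935), the RAS-like gene Rerg (0.102) and the carbonic anhydrase gene Car13 (0.114). For Tcf7 they were the sialyltransferase gene St6galnac5 (0.0716), Bmp4 (0.0728), which codes for a signal of the ureteric mesenchyme, and the uncharacterized 4930432J09Rik (0.0784). For Sp5, the nearest genes were farther off, with the ephrin receptor gene Epha8 (0.272), the forkhead gene Foxl1 (0.274) and the hedgehog antagonist gene Hhip (0.29). The measure compares size over 4 arrays alone.

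Markers of the tissues in the explant were read in the same fit, in which 15.0% of all genes were lower and 18.1% higher. Of 7 genes of the epithelium, 7 were higher with IWP-2, with a median change of 0.30 and a summed intensity of 180100 to 195400 in control and 204800 to 255700 with IWP-2. Of 6 genes of the mesenchyme, 1 was lower (Tbx18, -0.74 ± 0.26) and 1 higher (Pdgfrb, 0.80 ± 0.07), with sums of 361400 to 391300 and 375000 to 416900. Markers of the endothelium were higher for 4 of 6 genes (sums 52000 to 60440 and 59580 to 69810), of red blood cells for 4 of 6 (172700 to 269800 and 230600 to 288900) and of macrophages for 5 of 6 (13590 to 16250 and 15830 to 18460). Neural crest and nerve markers were higher for 2 of 6 genes (42270 to 57510 and 43600 to 65230). Nephron progenitor markers were higher for 5 and lower for 1 of 6 (46200 to 50520 and 51430 to 58800), with the largest marker changes for Six2 at 1.14 ± 0.27 (adjusted p = 0.00054) and Crym at -0.96 ± 0.45 (adjusted p = 0.00294), and those of lymphocytes were higher for 1 of 4 tested (714.6 to 800.2 and 800 to 885.4), with Cd3g and Cd3d not well above background. The part of tissue composition in these falls was not tested.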

How the data were processed

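RNA of cultured E12.5 ureters was hybridized to Agilent mouse arrays. The authors scanned them and ran Agilent Feature Extraction 10.7.3.1. The deposited scanner files hold, per spot, the mean and background intensity of each channel as raw values, processed intensities (background-subtracted and dye-normalized) and a log10 ratio of red over green, which served to check the dye direction. A deposited series table of signed fold changes, of unstated normalization, was an alternative only: its log2 values followed the processed ratios with r of 0.988 to 0.992.

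In limma 3.58.1 under R 4.3.3, mean intensities had their background removed by normexp with an offset of 50, and loess with a span of 0.3 was applied per array. Outlier spots (3.01% to 3.38% of gene spots) were left out, no spot was saturated, and the 4 spots of a probe were averaged. A probe was tested if over 0.5 of its spots were well above background in the control or the treated channel of 4 arrays (29933 probes). The brightest probe stood for a gene (22455 genes). Channel intensities were set to a common distribution of mean intensity across arrays. Ratios were fitted with limma with a dye term per gene, two-sided, with Benjamini-Hochberg adjustment over all genes and 0.05 as threshold; the fit was tested on simulated data. The number of arrays limits the precision. The labels number 4 replicates and the methods give 4 pools per condition, and the arrays were treated as separate pools. A legend and the results of the study speak of fewer, which the sources do not settle. An alternative therefore averages arrays as dye swaps.

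The members and lists were chosen with earlier results of these data known. Named are all 10 effectors and their probes, the genes of the SP and readout lists, and the called partners with Ctnnb1. The 3 genes nearest to Lef1, Tcf7 and Sp5 are also named. Of the tissue markers, the genes named were chosen after their values were seen. Alternatives were another background correction, normalization, scaling, dye treatment, filter, probe rule or table, and leaving out each array. The difference between paralogues was fitted after subtracting a paralogue's ratio (larger p of both directions) and, added later, as rows of the gene fit.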

Additional observations from a re-analysis of the deposited data

Results flagged for a closer look

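Among 60 genes examined, 2 had an array far from the other 3, where chance gives 3. Both stood apart on array 3. Hdac2, the histone deacetylase gene among the nuclear partners, changed by -0.281 on array 3 and by -0.166 to -0.148 on the others. Il7r, a lymphocyte marker, changed by 1.16 on array 3 and by 0.475 to 0.520 on the others. None of the 10 effectors was among them.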

How the results depend on the processing

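Sp5, Lef1 and Tcf7 fell past the threshold in all 17 alternatives run, with a log2 change of -3.46 to -2.62 for Sp5, -1.57 to -1.44 for Lef1 and -1.36 to -1.13 for Tcf7. No effector changed direction while past the threshold. Sp8 passed as lower under 5 alternatives: processed signals (-0.349, adjusted p = 0.021), a normexp offset of 10 (-0.194, 0.0179), no background correction (-0.137, 0.0471), no filter on dim probes (-0.119, 0.0486) and the mean of the probes (-0.119, 0.0477). Sp8 and Bcl9l gave no value with a minimum signal of 100. The number of effectors called higher was 1, Tcf7l1, with arrays averaged as dye swaps, and 0 to 1 when each array was left out, the 1 being Tcf7l1 without array 3.

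Over all genes, the series table gave 2050 lower and 1833 higher genes, against 3360 and 4068. With the 8 channels as separate samples, without the replicate block that pairs the channels of an array, 2068 were lower and 2033 higher. Leaving out an array gave 2180 (without array 3) to 2813 lower genes. The cause was not tested. The number of paralogue pairs that differed was 5 to 7 when each array was left out, with 5 without array 1 (Lef1 and Tcf7, Pygo1 and Pygo2 were lost), and 6 with no dye term. Signal limits Sp8 most, since the intensities of its probes lie near the offset.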
